A study of Nicotiana tabacum with 32 samples.

Results

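In untreated tobacco cells, 326 array spots gave less signal in cells silenced for SIPK than in wild-type cells, and 8 h after the elicitor megaspermin the same spots gave more signal in the silenced cells. They were picked by these values: among spots with no gene symbol or a symbol field starting with LOC, the mean log2 ratio was -0.4 or less over the 3 biotic control arrays and 0.4 or more over the 3 arrays of megaspermin at 8 h, with at least 2 values in each group. The array held 32448 spots, of which 16365 were open to the rule and measured in both groups, so that the members made up 1.99% of these. They came from 226 of 15360 clones. Of the members, 286 had no symbol, 29 carried 1 of 15 numbered locus symbols, and 11 had several symbols and are not named. The numbered loci are potato gene symbols from the array's annotation, which is dated, and no function is given for them here. The samples are tobacco, so a locus symbol names a spot, and which tobacco transcript gave its signal was not tested. Clones with the same symbol did not always share a sign.

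SIPK, the salicylic acid-induced protein kinase of tobacco, is a mitogen-activated protein kinase: it stands at the end of a phosphorylation cascade that is switched on within minutes when plant cells perceive an elicitor or a burst of reactive oxygen. Harpin is a protein elicitor of the bacterium Pseudomonas syringae, and megaspermin is an elicitor protein of the oomycete Phytophthora megasperma. Xanthine oxidase acting on xanthine releases superoxide, a reactive oxygen species. These arrays set silenced against wild-type cells to find how loss of SIPK changes the transcriptome during such responses.

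All samples were suspension cultures of Nicotiana tabacum Xanthi grown in the dark at 25 °C, either wild type or carrying an RNA interference construct against SIPK (SIPK-Ri). Each genotype had been pooled 3 days after a change of medium and divided into 3 volumes of 10 ml, so that p-values measure the spread between volumes of 1 pool. Genotype arrays set SIPK-Ri cells (query) against wild-type cells (reference) that had the same treatment, with 3 arrays in each of 8 groups: an untreated biotic control at 0 h, harpin at 4 h and 8 h, megaspermin at 4 h and 8 h, an abiotic control at 0 h, and xanthine oxidase at 4 h and 8 h. The abiotic control and the xanthine oxidase cells had all been incubated with xanthine for 30 min. Another 2 groups of 3 arrays set wild-type cells after 4 h of harpin or megaspermin (query) against untreated wild-type cells at 0 h (reference). Single arrays with exchanged dyes repeated the abiotic control and wild-type harpin.

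Controls were taken at 0 h only, so treatment and time in culture cannot be told apart. On the genotype arrays megaspermin is labelled as coming from P. megasperma, but the labels of the wild-type arrays give P. syringae for it. A positive log2 ratio was read as more signal in the query, which is likely from the labels but stated by none of them. The extent of SIPK silencing, the level of a transcript and the level of tissue markers could not be read from these ratios. Fewer cells of a kind and less RNA per cell cannot be told apart in such cultures.

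Between 8258 and 21105 spots had a value on an array, and replicate arrays correlated at 0.648 to 0.908. Members were measured often: the median member had a value on 29 of the 30 standard arrays, against 26 for all spots measured in both groups of the rule. They lay in all 12 sections of the array, with 22 to 36 per section. Both spots of a clone were members for 100 clones and 1 spot for 126, and spots of 1 clone are not replicates. Of 110 partner spots that were measured in both groups but missed a threshold, 100 had the signs of the members, with medians of -0.40 and 0.32.

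The values that chose the members are a description. Their median was -0.62 in the biotic control and 0.66 at 8 h of megaspermin, and the lowest control mean was -2.19 and the highest megaspermin mean 3.04. The array medians of the members were -0.69, -0.59 and -0.66 in the control and 0.63, 0.79 and 0.63 at 8 h of megaspermin, so that all 3 arrays of each group lay on the same side of 0. The second megaspermin array, which was the highest, had the fewest values of the 3, 12233. Near the thresholds, 84 members lay between -0.5 and -0.4 in the control and 81 between 0.4 and 0.5 with megaspermin. When the rule was applied without array 1, 2 or 3 of both groups, 98.2%, 96.6% and 90.9% of the chosen spots with a value were below 0 on the left-out control array, against 53.1%, 52.1% and 54.3% of all measured spots. On the left-out megaspermin array 93.5%, 95.5% and 91.4% were above 0, against 46.8%, 49.5% and 44.0%. These choices took in 277, 338 and 319 spots.

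**Figure D1:**
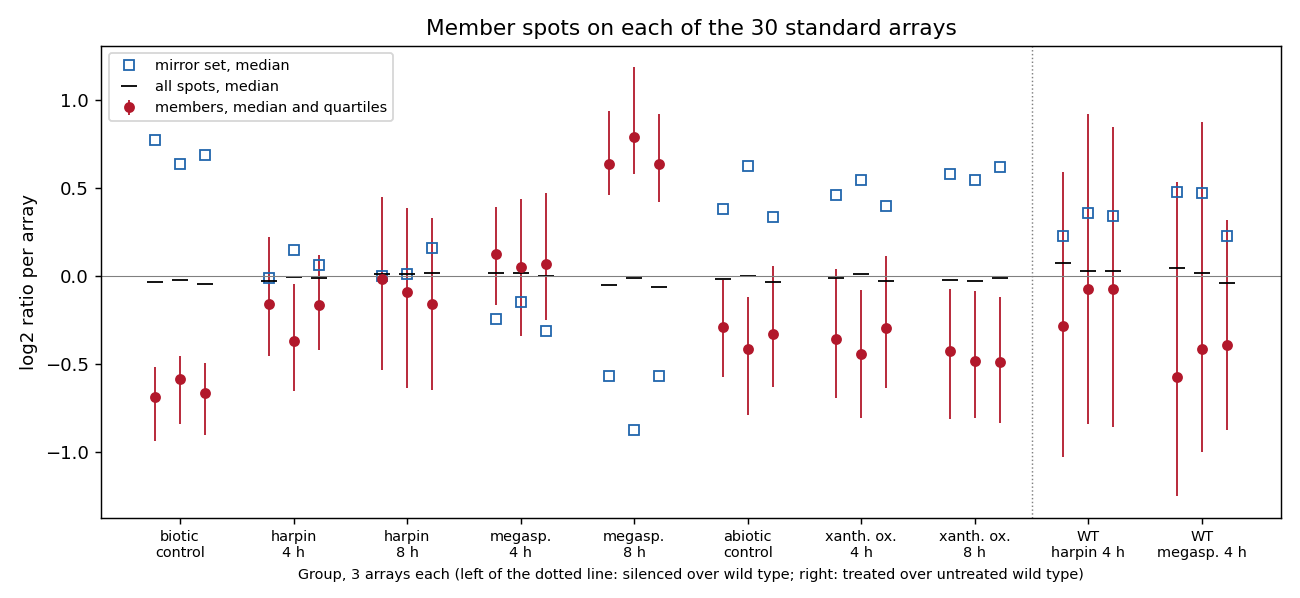
Median log2 ratio of the members on each of the 30 standard arrays (red points, bars from the lower to the upper quartile), with the median of all spots (black) and of the 205 spots that meet the rule with its signs turned (blue squares). The members sit below 0 in the biotic control and above it at 8 h of megaspermin by choice, near 0 at 4 h of megaspermin, and below 0 on every array of the abiotic groups.

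At 4 h of megaspermin, before the time point of the rule, the members lay on both sides of 0. Their median log2 ratio was 0.08, against 0.02 for all tested spots. By limma with an adjusted p under 0.05, 59 of 303 tested members were higher in the silenced cells and 35 were lower, where 16.3% of all spots were higher and 15.6% lower. All 11 named spots that passed were higher, and they belonged to LOC102586657, LOC102587739, LOC102603986, LOC102604230 and LOC102604560.

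LOC102603986 had the highest values of the named members at 4 h. Its spot 156814 read 1.11, 1.19 and 1.58 on the 3 arrays (mean 1.29, 2.45-fold higher in silenced cells, limma adjusted p = 6.69e-07). In the biotic control the same spot read -0.73, -0.49 and -0.14, and at 8 h of megaspermin 0.89, 1.06 and 1.06. The rule did not use the arrays at 4 h, which were all above 0. Both spots of the other clone of LOC102603986 were members and passed at 4 h as well, with a mean of 0.95 for spot 161386 (limma adjusted p = 8.45e-05). Among unnamed members, spot 151090 had the largest difference between the groups of the rule, with control arrays at -0.69, -0.67 and -0.72 and megaspermin 8 h arrays at 2.50, 3.99 and 2.64. At 4 h it read 1.57, 1.72 and 1.73 (3.19-fold, limma adjusted p = 8.05e-08). The 3 arrays at 4 h lay close together and above 0, while the control and 8 h values are those by which the spot was picked. Spot 160896, picked in the same way with means of -0.93 in the control and 2.68 at 8 h, had 1.65 ± 0.07 (SD, n = 3) at 4 h. At the other end, spot 148739 was lower at 4 h, with a mean of -1.11 (limma adjusted p = 2.54e-07), against 0.44 at 8 h.

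With harpin the median of the members lay below 0 at both times. At 4 h it was -0.22, with 26 of 312 members higher and 87 lower, against 14.9% and 16.3% of all spots (31.2% in either direction). Without the first harpin array 75 of 306 members passed in place of 113, against 23.3% of all spots. With a dye term in the fit 55 of 312 passed, against 18.9% of all spots. At 8 h the median was -0.11, and the spread was wide, from -1.81 to 2.53, with 67 of 312 higher and 95 lower against a background of 23% and 21.6% (44.6% in either direction). Of 305 members tested at both times, 45 were lower at both (14.8%, against 10.2% of all spots) and 10 higher at both (3.28%, against 10.3%). Another 6 were lower and then higher (1.97%, against 0.986%), and 0 were higher and then lower, against 0.403% of all spots. Spots that were equally low in the control but did not turn with megaspermin, a set of 2341 spots chosen after the data were seen, had a median of -0.73 at 8 h of harpin, and 68.4% of those tested were lower. The 3023 spots that were high at 8 h of megaspermin but not low in the control had a median of 0.49. Of those tested, 56.9% were higher and 4.3% lower. The median of the members, chosen at both thresholds, lay between these medians.

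The named loci split at 8 h of harpin, with 7 of 28 tested spots higher and 11 lower. LOC102577726 was higher: spot 136672 read 1.48, 1.33 and 1.22 (mean 1.34, 2.54-fold, limma adjusted p = 1.68e-09), close to its 1.15, 1.39 and 1.11 at 8 h of megaspermin. All 3 member spots of LOC102577726, from 2 clones, passed at 8 h of harpin. At 4 h of harpin spot 136672 had read 0.35, 0.24 and 0.39, and the rise from 4 h to 8 h passed the limma test of the difference itself (adjusted p = 0.000233). The rise also passed for spot 138531 of the same clone (limma adjusted p = 4.98e-05). It did not pass for member spot 143342 of the other clone (limma adjusted p = 0.0548). LOC102595604 went the other way. Its spot 131616 read -1.32, -1.46 and -1.81 at 8 h of harpin (2.89-fold lower, limma adjusted p = 5.85e-08), while at 8 h of megaspermin it had read 0.35, 1.03 and 0.49. The 3 member spots of LOC102595604 had means from -1.54 to -1.05 at 8 h of harpin, and all passed. Of the 5 clones of this locus on the array, 2 held members, and both spots of another clone had positive means in the biotic control, so that the locus as a whole did not follow the rule.

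The member spots of LOC102577675, LOC102587739 and LOC102590282 were lower at 8 h of harpin as well, with means from -1.43 to -0.80. In the other clone of LOC102587739, spot 131992 had a mean of -0.12, which did not pass (limma adjusted p = 0.53). Spot 131148 of that clone, at 0.29, was not tested. LOC102577675 was represented by 3 clones, and its other 2 clones had harpin 8 h means of -1.24 to -1.02 although none of their spots was a member. For spot 143051, which has no symbol, the 2 arrays with a value at 4 h of harpin read -0.52 and -0.52 and the 3 arrays at 8 h read 2.20, 2.49 and 2.91. This rise of 3.05 on the log2 scale was the largest of the members between the harpin times (limma adjusted p = 6.13e-06). Over all members, 49 of 305 were higher at 8 h than at 4 h of harpin and 45 lower, against 9.87% and 9.75% of all spots (19.6% in either direction).

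**Figure D2:**
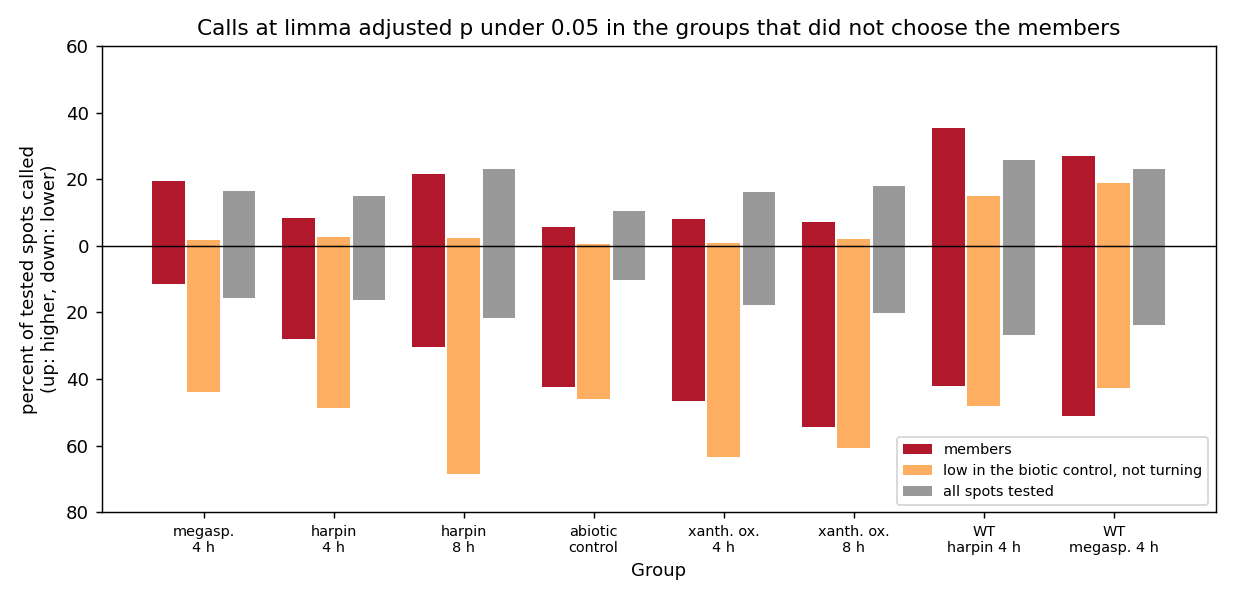
Percent of tested spots called higher (upward bars) or lower (downward bars) in each group by limma at an adjusted p under 0.05, for members (red), spots low in the biotic control that did not turn (orange) and all tested spots (grey). At 8 h of harpin 30.4% of the members but 68.4% of the spots that did not turn were lower, while in the abiotic control the shares were 42.5% and 45.8%. Spots high at 8 h of megaspermin but not low in the control are not drawn. Of those tested at 8 h of harpin, 4.3% were lower.

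In the abiotic set, too, most members gave less signal in silenced cells. Their median was -0.34 in the xanthine-incubated control, -0.37 at 4 h and -0.46 at 8 h of xanthine oxidase. In the abiotic control 138 of 325 were lower and 18 higher, against 10.4% and 10.6% of all spots (21% in either direction). Without the second abiotic control array 98 of 312 members passed in place of 156, against 14.8% of all spots. At 4 h of xanthine oxidase 138 of 296 were lower and 24 higher (background 17.9% and 16.1%, 33.9% in either direction). With a dye term 96 rather than 162 passed, against 21% of all spots. At 8 h 160 of 295 were lower and 21 higher (background 20% and 18%, 38% in either direction). The abiotic control compared the same genotypes at 0 h after incubation with xanthine and did not enter the rule, although the cells may come from the same cultures. Of 286 members tested in all 3 abiotic groups, 202 had means below 0 in all 3 (70.6%, against 36.1% of all spots) and 97 passed as lower in all 3 (33.9%, against 10.2%). Members had been chosen as low in the biotic control. Of the spots equally low there that did not turn, 45.8%, 63.5% and 60.7% of those tested were lower in the 3 groups. The shares of the members were 42.5%, 46.6% and 54.2%. The dye-exchanged abiotic control array had a member median of -0.18.

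Few members differed between xanthine oxidase and the abiotic control. At 4 h 0 of 296 members passed by limma, against 0.0253% of all spots, 0.0127% higher and 0.0127% lower. At an unadjusted p under 0.05 there were 29 of 296 members, against 1194 of all 15803 spots tested. With array weights 33 of 296 members passed, against 5.43% of all spots. At 8 h 5 of 295 members differed, 4 higher and 1 lower, against 0.316% of all spots (0.202% higher and 0.114% lower). With array weights 51 of 295 passed at 8 h, against 15.8% of all spots. Spots 149036 and 149880, both of 1 clone, were the highest of the 5 that differed without weights. Spot 149880 read -1.76, -1.43 and -1.67 in the abiotic control and -0.28, -0.26 and -0.12 at 8 h, a difference of 1.40 (limma adjusted p = 0.00069). Its arrays in these groups did not overlap. Spot 146511 was lower at 8 h than in the abiotic control by limma (difference -0.94, adjusted p = 0.031), but this single lower call was lost without any 1 of the abiotic control arrays, without either of 2 xanthine oxidase arrays, and with a replicate block, and with clone averages 0 were lower.

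On the standard arrays, a few members departed from the rest and were higher in silenced cells throughout the abiotic set. Of the 12 spots called higher in all 3 abiotic groups (4.2% of the members tested, against 10.2% of all spots), 7 belonged to 4 named loci: LOC102604230, LOC102604560, LOC102586657 and LOC102585585. LOC102604230 stood out. Its spot 145493 read 2.56, 2.29 and 2.59 in the abiotic control (mean 2.48, 5.58-fold, limma adjusted p = 1.75e-11), where the biotic control had given -0.74, -0.58 and -0.82. With xanthine oxidase it read 2.55, 2.69 and 2.81 at 4 h and 2.36, 2.38 and 1.67 at 8 h. For this spot the abiotic arrays were all high and did not overlap with the biotic control arrays, but low biotic control values were a condition of the rule. The dye-exchanged abiotic control array read 2.01 for this spot and 1.79 for the other spot of this locus. It read 1.91 and 1.20 for the spots of LOC102604560. For LOC102586657 it read only 0.308 (spot 153529) and 0.415 (spot 155388), against standard means of 1.141 and 0.997. For spot 144371 of LOC102585585 it read 0.039, against a standard mean of 0.717.

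The second spot of LOC102604230, 147352, had a mean of 2.50 in the abiotic control. At 8 h of harpin, by contrast, spot 145493 read -0.59, -0.87 and -0.74 (limma adjusted p = 0.00158). LOC102604560 followed the same order of groups. Its spot 154181 read 1.78, 1.67 and 1.72 in the abiotic control (3.30-fold, limma adjusted p = 3.30e-09) and -0.98, -0.71 and -0.82 at 8 h of harpin (limma adjusted p = 8.32e-05). For LOC102586657, spot 153529 read 0.92, 0.81 and 1.69 in the abiotic control and 1.57, 2.47 and 2.02 at 8 h of xanthine oxidase, each group passing the limma test (adjusted p = 1.20e-06 and 2.23e-11).

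The strongest negative values of the abiotic set belonged to an unnamed clone with spots 139744 and 141603. Spot 139744 read -1.99, -2.49 and -2.21 in the abiotic control (4.68-fold lower, limma adjusted p = 1.37e-11) and -2.54, -2.39 and -2.62 at 8 h of xanthine oxidase. In the biotic control it read -1.52, -1.13 and -1.80, and at 8 h of megaspermin 1.35, 1.75 and 0.70. Among the genotype groups only the megaspermin 8 h arrays lay wholly above 0 for this spot, and high values in that group were a condition of the rule.

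**Figure D3:**
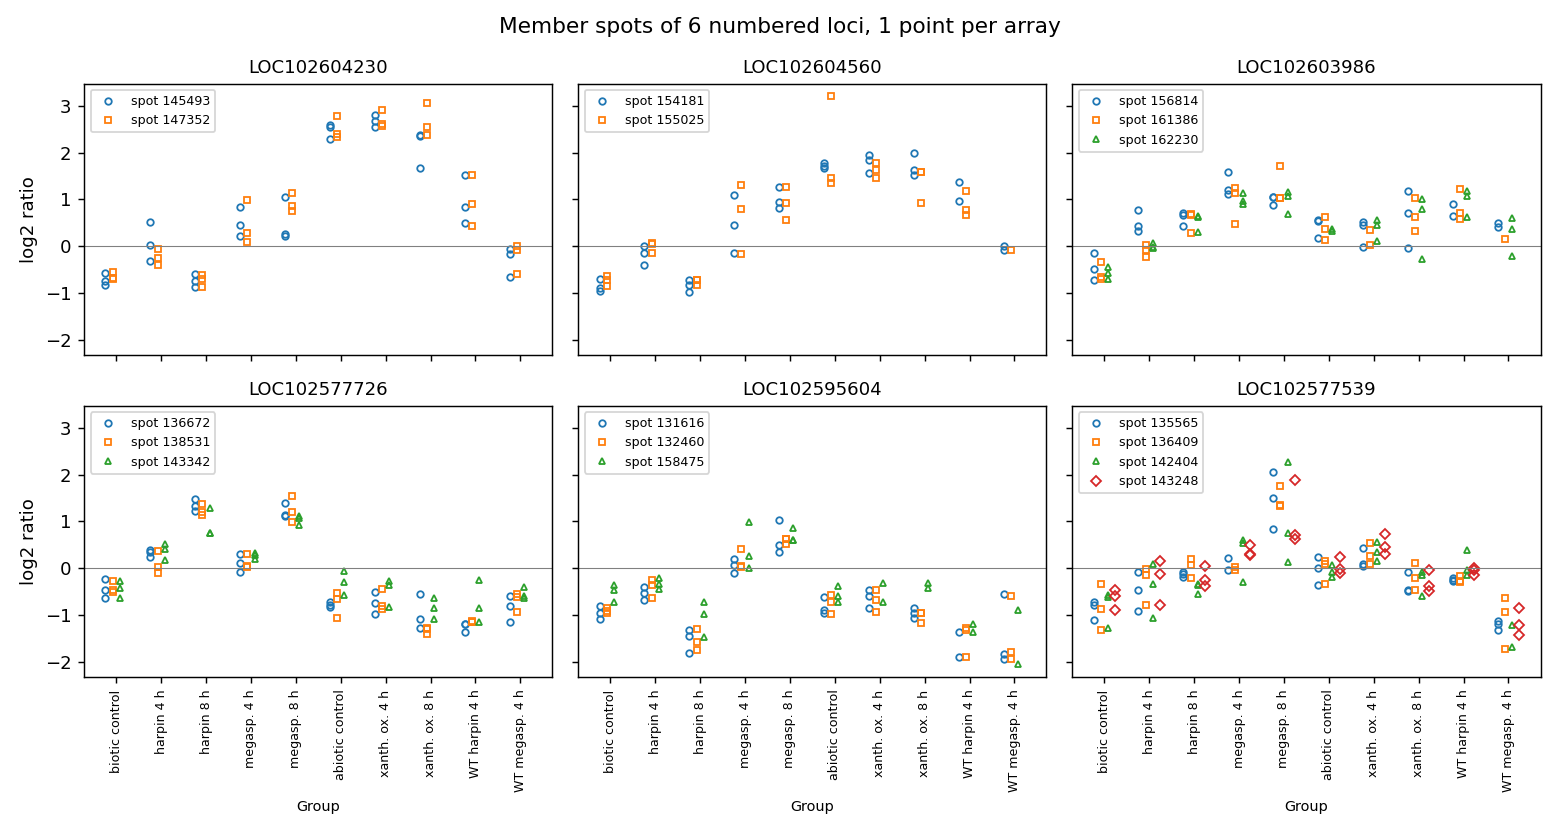
Log2 ratio on each array (1 point per array, 1 marker shape per member spot) of 6 numbered loci across the 10 groups. The values in the biotic control and at 8 h of megaspermin chose the spots. LOC102604230 and LOC102604560 are above 1 on nearly all abiotic arrays but below 0 in the biotic control and at 8 h of harpin, LOC102577726 is above 0 at 8 h of both elicitors, and LOC102595604 is below 0 at 8 h of harpin.

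In wild-type cells most tested members passed with each elicitor, and in both directions. These ratios may share the untreated wild-type RNA with the biotic control arrays of the rule, and both wild-type groups share it with each other. After 4 h of megaspermin 68 of 251 tested members were higher and 128 lower (background 23.1% and 23.7%, 46.7% in either direction), with a median of -0.43. Without the first wild-type megaspermin array fewer members could be tested, 180, and 129 passed in place of 196, against 44.6% of all spots. After 4 h of harpin 93 of 264 were higher and 111 lower (background 25.7% and 26.6%, 52.3% in either direction), with a median of -0.17. Among spots low in the control that did not turn, the medians were -0.28 with megaspermin and -0.37 with harpin.

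In wild-type cells the lowest member was the unnamed spot 160773, with -3.32 and -4.32 on the 2 harpin arrays and -3.06 and -2.18 on the 2 megaspermin arrays that measured it (limma adjusted p = 2.19e-08 and 7.70e-06). LOC102590282 had the lowest harpin mean of the named members, -2.24 (limma adjusted p = 3.50e-08), and had no value for this spot on the megaspermin arrays. LOC102587739 was lower with both elicitors in 1 of its 2 clones, the one that held members. Its spot 158519 read -1.94, -1.69 and -1.60 with megaspermin (3.35-fold lower, limma adjusted p = 1.06e-09) and -1.89, -1.36 and -1.47 with harpin. Its megaspermin and harpin arrays overlapped. In the other clone of LOC102587739, spots 131148 and 131992 had megaspermin means of -0.42 and 0.30, which did not pass (limma adjusted p = 0.134 and 0.103). With harpin spot 131992 had a mean of 0.08, which did not pass either (limma adjusted p = 0.603). LOC102577539, all 4 spots of which were members, was lower with megaspermin and near 0 with harpin. Its spot 135565 read -1.32, -1.12 and -1.18 with megaspermin (limma adjusted p = 6.76e-07) against -0.27, -0.25 and -0.20 with harpin, and the difference between the elicitors passed (limma adjusted p = 0.00514). At 8 h of megaspermin the spot means of this locus in silenced over wild-type cells ran from 1.06 to 1.48, the highest being the highest of all named members.

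LOC102585585 rose with megaspermin in wild-type cells, with 3.04, 3.23 and 0.61 on the 3 arrays for spot 144371 (limma adjusted p = 1.55e-08), where the third array stood apart. With harpin the same spot had a mean of 0.55, which did not pass (limma adjusted p = 0.0711). The other spot of its clone, 143527, was not a member and did pass with harpin (mean 0.68, limma adjusted p = 0.0183). LOC102582822 rose with both elicitors, with 1.43, 1.94 and 1.48 after harpin for spot 155790 (limma adjusted p = 1.19e-05) and 0.77, 1.23 and 0.44 after megaspermin (limma adjusted p = 0.0139). Its spot 157649 also passed with megaspermin (mean 0.72, limma adjusted p = 0.00227), and the difference between the elicitors passed for 157649 (limma adjusted p = 0.0209) and not for 155790 (limma adjusted p = 0.179). Only 1 of the 4 clones of LOC102582822 held members, and the others had positive biotic control means. Spot 140540 read 3.27, 3.46 and 2.61 with megaspermin (8.64-fold, limma adjusted p = 7.16e-15) but 0.20, 0.60 and 0.32 with harpin. Spot 158457 had the highest wild-type value of the members, with 3.25, 5.41 and 4.48 after harpin (20.8-fold, limma adjusted p = 1.55e-11). Over all members, harpin exceeded megaspermin in wild-type cells for 43 of 234 and lay below it for 18 (background 6.53% and 6.54%, 13.1% in either direction). In place of these 61 members, 38 passed without the second wild-type harpin array, 31 without the first megaspermin array and 33 without the second, with fewer spots tested. The members tested were then 181, 173 and 173, and 10.8%, 10.7% and 10.5% of all spots passed.

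The wild-type response was set beside the genotype effect in groups outside the rule. At 4 h of megaspermin the 68 members raised by megaspermin in wild-type cells had a median genotype ratio of -0.22, with 28 above 0, and of the 128 lowered members 127 were measured and had a median of 0.11, with 86 above 0. At 8 h of harpin the medians were 0.43 for the raised and -0.53 for the lowered members, and at 8 h of xanthine oxidase 0.12 and -0.70. The order of the medians at 4 h of megaspermin was thus the opposite of that at 8 h of harpin and of xanthine oxidase. The genotype arrays at 4 h of megaspermin may share the treated wild-type RNA with the wild-type arrays. Of 80 members lower at 8 h of harpin in silenced cells and tested in both, 71 (88.8%) were also lowered by megaspermin in wild-type cells, and these were 55.9% of the 127 lowered. Over all spots the corresponding shares were 49.2% and 47.8%. Lowering by megaspermin was itself more frequent among the members tested in both, 127 of 245 against 2610 of 10139 spots. Of 60 members higher at 8 h of harpin, 33 (55%) were raised by megaspermin, which was 49.3% of the 67 raised, against 33.3% and 32.3% over all spots. At 8 h of xanthine oxidase 94 of the 126 lowered members tested in both (74.6%) were lower in silenced cells, against 43% over all spots. Of the 58 raised members 9 were lower (15.5%, against 7.33%) and 13 higher (22.4%, against 31.7%). Whatever the wild-type response, 128 of 234 members tested in both were lower and 19 higher in silenced cells at 8 h of xanthine oxidase. Over all spots these counts were 2097 and 2044 of 10016. The shares of members and of all spots thus start from unlike levels, and a tie beyond those levels was not tested. Across 287 members the mean ratios of wild-type megaspermin and harpin 8 h genotype arrays correlated at 0.584, against 0.316 across 12915 measured spots. These spots include pairs from 1 clone and are not independent.

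**Figure D4:**
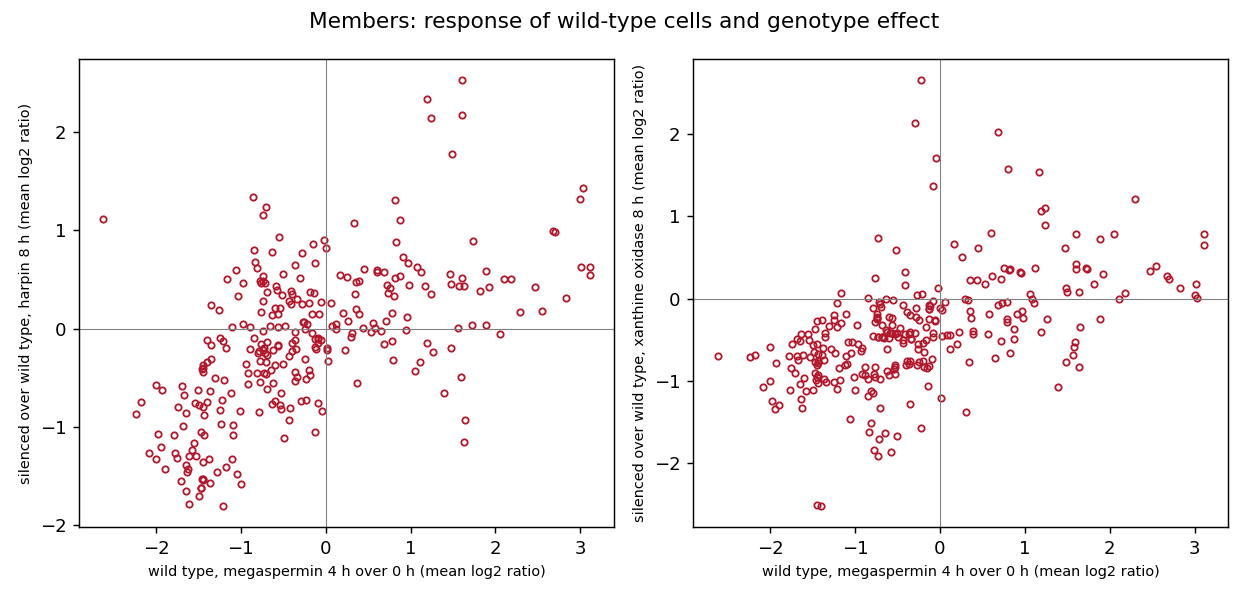
Each member's mean log2 ratio in wild-type cells after 4 h of megaspermin (horizontal) against its mean silenced-over-wild-type ratio at 8 h of harpin (left) and of xanthine oxidase (right). Members lowered in wild-type cells lie mostly below 0 on both vertical axes.

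Named genes of known function were set beside the members, in lists chosen with earlier results of these data known. At the thresholds of the rule, only 2 of 313 measured spots with another symbol qualified: PGAM, a glycolytic phosphoglycerate mutase (-0.58 and 0.48), and STUGE45 (-0.44 and 0.48). Over the ethylene and methionine cycle (METK1, ARD, ERS and MS) 28 of 32 spots were higher in the abiotic control and 0 lower, with a median of 0.77, the opposite of the members' -0.34. The defence genes (PPO, PR1B, STWRKY8, NAC2 and HPL) had 12 of 17 tested spots higher in the abiotic control and a median of 0.97. The redox genes (CAT1, AOX and DHAR) had 2 of 13 higher and 4 lower, with a median of -0.28. Over all spots 10.6% were higher and 10.4% lower in the abiotic control. At 8 h of harpin the 3 lists had medians of -0.08, 0.78 and -0.35, beside -0.11 for the members. In the groups of the rule the 3 lists had medians of -0.03, 0.47 and -0.21 in the biotic control and -0.13, -0.04 and -0.39 at 8 h of megaspermin. Of the leaf and tuber markers, GBSS and PSBR were on the array; their ratios compare genotypes and say nothing of their level. With 3 to 14 spots tested, 0 passed in the abiotic control, at 4 h of megaspermin or in the wild-type groups. After 4 h of harpin 2 of 8 were higher and 1 lower, against 14.9% and 16.3% of all spots. At 8 h of harpin 2 of 4 were higher, against 23%, with a median of 0.98. At 4 h of xanthine oxidase 2 of 8 were lower, against 17.9%, and at 8 h 2 of 7 were higher, against 18%. Their part in the members' values was not tested.

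Over the 10 groups, the course of the members' median was most like that of spots of LOC102577831 (r = 0.959 over 8 groups), LOC102580877 (0.929 over 8), PGAM (0.902 over 10) and LOC102600759 (0.890 and 0.885 over 10) among 1419 named spots outside the members. The course includes both groups of the rule, so the ranking rests in part on the values that chose the members and is a description. LOC102577831 and LOC102580877 kept positive means in all 8 groups, so the likeness is one of order and not of level. LOC102579649, LOC102583619 and LOC102595887, the remaining named members, had megaspermin 8 h means of 0.42, 0.52 and 0.56 and biotic control means of -0.60, -0.45 and -0.41.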

How the data were processed

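The authors deposited 1 table of 32448 spots on 32 arrays. Its deposited values were taken to be log2 ratios of query over reference, normalized within each array. The sources used here state neither base, normalization nor direction. The table held 0 columns of other samples. A separate annotation table for the spots of the array gave the symbols. Spots at fixed offsets in the layout were taken as pairs of 1 clone (905 of 905 named pairs match).

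All 30 standard arrays were fitted in limma 3.58.1 (R 4.3.3) with 10 group means, eBayes and Benjamini-Hochberg adjustment over all spots with at least 2 values per group (threshold 0.05). Groups and 4 contrasts outside the rule were tested; the dye-exchanged arrays were described. The fit was tested on simulated data. Members and lists were chosen with earlier results of these data known. Named are all members with 1 symbol and, without one, the 2 with the largest turn and up to 2 highest and 2 lowest per contrast. Same-numbered arrays did not deviate together (median r -0.027), so numbers do not pair them. No sequences of the clones were used here.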

Additional observations from a re-analysis of the deposited data

Results flagged for a closer look

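Tests of a difference between 2 groups gave 94 members whose genotype effect differed between 8 h and 4 h of harpin, 61 whose wild-type response differed between harpin and megaspermin, and 5 whose genotype effect differed between 8 h of xanthine oxidase and the abiotic control, each by limma at an adjusted p under 0.05. The shares over all spots were 19.6%, 13.1% and 0.316%.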

How the results depend on the processing

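Limits: the arrays measure volumes of 1 pool per genotype, their number limits the precision, and the depth behind a ratio is unknown. Thresholds of 0.3 gave 601 members, 0.5 gave 184, and clone averages 163. With array weights, 149 of 303 members passed at 4 h of megaspermin, against 47.8% of all spots. In the same fit 33 and 51 differed from the abiotic control at 4 h and 8 h of xanthine oxidase, against 5.43% and 15.8%. With arrays scaled to a common spread these last counts were 3 and 9, against 0.671% and 1.08% of all spots. So scaled, 31 of 234 differed between the elicitors in wild-type cells, against 4.65%. With clone averages 2 differed at 8 h of xanthine oxidase and 40 between the elicitors, against 0.302% and 13.9% of all clones tested. A dye term with the dye-exchanged arrays left 55 calls at 4 h of harpin and 96 at 4 h of xanthine oxidase, against 18.9% and 21% of all spots. Leaving out 1 array gave 98 to 123 calls in the abiotic control, against 14.8% to 16.7% of all spots. At 4 h of harpin it gave 75 to 82, against 23.3% to 30.5%, and in wild-type megaspermin 129 to 191, against 37.6% to 51.2%. Between the elicitors in wild-type cells it gave 31 to 62, against 10.5% to 13.3%, where the lowest count came without the first megaspermin array. Fewer values per group also left fewer spots to test. The cause of the other moves was not tested. A replicate block gave 156 calls in the abiotic control and 161 at 8 h of harpin, against 21.3% and 43.4% of all spots. Of 30 arrays, 2 correlated best with their own number. For named spots, 2361 of 2580 alternatives kept direction and side of the threshold, 219 lost the call and 0 reversed; 55 of 322 were lost with the dye term.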
